A study of Mus musculus with 6 samples.

Results

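The AP-1 transcription factor genes described here are 10 mouse genes, Fos, Fosb, Fosl1, Fosl2, Jun, Junb, Jund, Atf3, Batf3 and Maff, taken by gene name from the 34745 genes in the counts of this RNA-seq series. Each name matched 1 Ensembl gene. Of these 10 genes, 9 exceeded the study's own limit for testing, a sum of 500 counts across all 6 libraries, and Batf3 did not.

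AP-1 is a dimer of basic leucine zipper (bZIP) proteins that binds DNA at short palindromic sites. FOS proteins bind mainly with a JUN partner, whereas JUN proteins can also pair with one another, so the RNA level of each family member bears on which dimers a cell can form. Fos, Fosb, Jun and Junb are classic immediate-early genes, switched on within minutes of growth factors, serum, stress or TNF, and Fosl1 (FRA1) and Fosl2 (FRA2) usually follow later. In lung adenocarcinoma, oncogenic RAS signals through ERK to this family, and FRA1 is known for its part in invasion.

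The cells were 889, a murine lung cancer line (889-DTC in the paper's methods, strain C57BL/6 on the label). Group sgcontrol (3 libraries) expressed Cas9 from a lentiviral vector with a control sgRNA against EGFP, and group sgkiaa1522 (3 libraries, labelled KIAA1522-downregulated) expressed Cas9 with sgRNA against kiaa1522. The methods give puromycin selection or sorting of transduced cells and growth with fetal bovine serum, and do not say which sgRNA the sequenced cells carried, whether they were a pool or a clone, or whether the replicates were separate cultures, so the p-values measure the spread between these libraries, which may be technical. The libraries held between 12220001 and 18609376 counts. The targeted gene, listed as C77080, was at 127 ± 2.93 CPM (TMM-normalised read counts, scaled to library size) in sgcontrol and at 210 ± 6.38 CPM in sgkiaa1522 (SD, n = 3), so its RNA was higher in the libraries labelled as depleted. These data hold no protein measure, and an RNA level does not report the protein of an edited gene. Every direction below is that of the libraries labelled sgkiaa1522.

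Of the 9 tested AP-1 genes, 4 fell in the libraries labelled sgkiaa1522 (Fos, Fosb, Jun, Junb), 3 rose (Fosl1, Fosl2, Maff), and 2 (Jund, Atf3) stayed above an adjusted p of 0.05 by edgeR (quasi-likelihood test). Fos and Fosb fell and Fosl1 rose by more than 1 on the log2 scale. Over all 10046 tested genes, 26.3% were lower and 26.3% were higher at this adjusted p, against 44.4% and 33.3% of the 9 genes. With an added limit of at least 1 in log2 fold change, 4.34% of all tested genes were lower and 2.74% higher, against 2 and 1 of the 9. The 2 groups did not overlap, on CPM, for the same 4 falling and 3 rising genes, and among all tested genes 31.1% were lower and 30.6% higher without overlap. The median log2 fold change (sgkiaa1522/sgcontrol) was -0.36 over the 9 genes and -0.0067 over all tested genes.

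**Figure D1:**
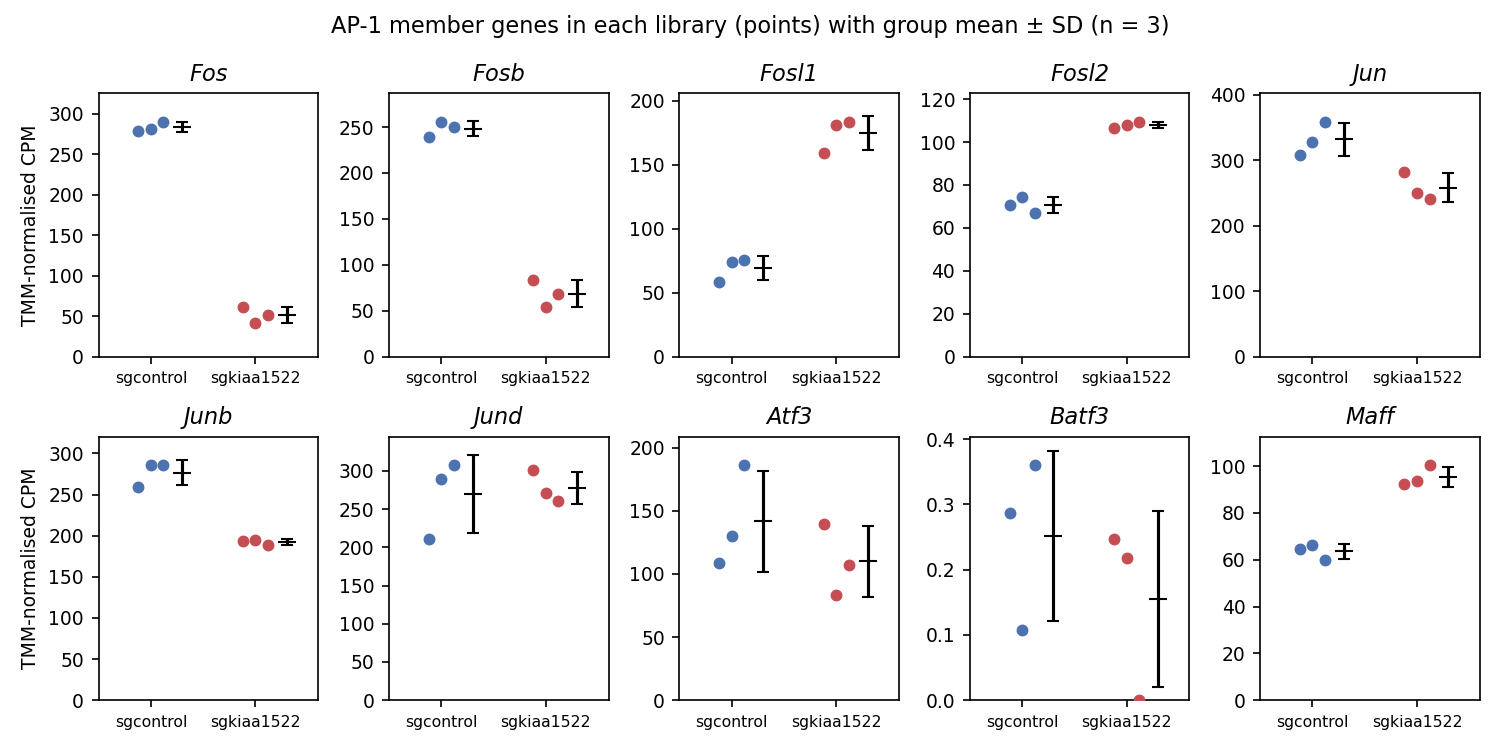
TMM-normalised CPM of each AP-1 gene (y axis, linear, from 0, scaled per gene) in the 3 sgcontrol and 3 sgkiaa1522 libraries (points), with the mean ± SD of each group. Fos and Fosb sat at 239 CPM or more in every sgcontrol library and at 83.3 CPM or less in every sgkiaa1522 library, Fosl1 was higher in all 3 sgkiaa1522 libraries, and the groups overlapped for Jund, Atf3 and Batf3.

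Fos (ENSMUSG00000021250, chromosome 12 from 85473890 to 85477273, plus strand of GRCm38), the founding member and the partner of JUN in the classic AP-1 dimer, was at 279, 280 and 290.0 CPM in sgcontrol and at 61.9, 41.3 and 51.7 CPM in sgkiaa1522. All 3 sgkiaa1522 libraries were low, and the gap between the groups was 217 CPM. Its log2 fold change was -2.46 (standard error, SE, 0.137, adjusted p = 2.7e-05, from the quasi-likelihood test of edgeR with the Benjamini-Hochberg method), a 5.50-fold lower level. Only 21 of the 10046 tested genes had a lower log2 fold change.

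Fosb (ENSMUSG00000003545, chromosome 7 from 19302696 to 19310051, minus strand), a close relative of Fos, was at 239, 256 and 250 CPM in sgcontrol and at 83.3, 53.8 and 68.6 CPM in sgkiaa1522. The groups were again far apart, and replicate 2 was the lowest sgkiaa1522 library for Fosb as it was for Fos. Its log2 fold change was -1.86 (SE 0.145, edgeR adjusted p = 9.0e-05), a 3.63-fold lower level. Counts per gene do not separate the full-length form of Fosb from its truncated splice form.

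Fosl1 (ENSMUSG00000024912, chromosome 19 from 5447547 to 5455946, plus strand), which encodes FRA1, was at 58.5, 74.2 and 75.5 CPM in sgcontrol and at 159, 181 and 184 CPM in sgkiaa1522. Every sgkiaa1522 library was above every sgcontrol library. The log2 fold change was 1.33 (SE 0.112, edgeR adjusted p = 1.1e-04), a 2.52-fold higher level. Of its exon bases, 57.2% are shared with Ccdc85b, a gene on the opposite strand, and the sources used here do not say whether the counting used strand. Ccdc85b rose too, from 61.8 ± 10.6 to 84.9 ± 3.46 CPM (SD, n = 3, log2 fold change 0.46, edgeR adjusted p = 0.016), and its part in the Fosl1 value was not tested.

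Fosl2 (ENSMUSG00000029135, chromosome 5 from 32135801 to 32157842, plus strand), which encodes FRA2, was at 70.5, 74.4 and 66.8 CPM in sgcontrol and at 107, 108 and 109 CPM in sgkiaa1522. Its rise was smaller than that of Fosl1, with a log2 fold change of 0.61 (SE 0.0656, edgeR adjusted p = 2.8e-04), and the groups did not overlap. The FOS family thus split, with the immediate-early pair lower and the FRA pair higher in the same libraries.

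The sequences before the start sites of Fos, Fosb and Fosl2 are shown because these family members moved in opposite directions, and Fosl1 has no entry in the RefSeq promoter table of GRCm38.p6, which held 9 of the 10 genes. Each line gives the 250 bases before the annotated start, 5′ to 3′ on the gene's strand, at chr12:85473640-85473889 (plus strand), chr7:19310046-19310295 (minus) and chr5:32136222-32136471 (plus). Capitals mark matches on either strand to TGANTCA (the AP-1 site), TGACGTCA (the full CRE of CREB and ATF proteins), TGACG (a shorter CRE), the CArG box of SRF and the κB site of NFκB, and on the gene's strand to TATAAA.
Fos: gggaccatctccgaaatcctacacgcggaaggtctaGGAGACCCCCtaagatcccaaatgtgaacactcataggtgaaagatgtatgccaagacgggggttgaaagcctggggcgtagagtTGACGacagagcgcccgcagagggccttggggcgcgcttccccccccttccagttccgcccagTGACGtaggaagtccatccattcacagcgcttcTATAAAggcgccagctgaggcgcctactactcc
Fosb: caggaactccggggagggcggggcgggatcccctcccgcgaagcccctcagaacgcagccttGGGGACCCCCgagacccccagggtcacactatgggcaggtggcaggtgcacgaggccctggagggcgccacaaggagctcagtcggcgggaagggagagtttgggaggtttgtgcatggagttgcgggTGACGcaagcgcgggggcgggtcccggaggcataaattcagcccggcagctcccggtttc
Fosl2: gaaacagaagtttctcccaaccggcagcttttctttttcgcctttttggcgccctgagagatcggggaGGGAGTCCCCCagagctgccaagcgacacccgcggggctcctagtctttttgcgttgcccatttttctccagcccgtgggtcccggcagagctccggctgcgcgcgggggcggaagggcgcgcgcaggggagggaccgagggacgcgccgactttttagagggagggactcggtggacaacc

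The Fos window held 2 TGACG matches, from 129 and from 66 bases before the start, 1 κB match, and TATAAA 33 bases before the start. The Fosb window held 1 TGACG match, from 60 bases before the start, and 1 κB match. The Fosl2 window held 2 overlapping κB matches, on opposite strands, and no TGACG. None of the 9 genes had TGANTCA or a CArG box in its windows, and TGACGTCA was found in 1 of the 3 Maff windows, from 29 bases before the start. TGACG was also found for Junb and Atf3, and a further Maff window held a TGACG match and a κB match. Of all 32851 promoter windows of the same length, 17.8% held TGACG, 1.55% held TGACGTCA (in which TGACG also matches), 6.75% held TGANTCA, 1.47% a CArG box, 3.90% a κB match and 7.59% TATAAA. A match is a description of the sequence, and an absent match says only that these letters are not in this window.

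Jun (ENSMUSG00000052684, chromosome 4 from 95049034 to 95052222, minus strand), the main partner of FOS proteins, was at 309, 328 and 359 CPM in sgcontrol and at 283, 250.3 and 241 CPM in sgkiaa1522. The groups did not overlap, although the highest sgkiaa1522 library was only 25.9 CPM below the lowest sgcontrol library. Its log2 fold change was -0.36 (SE 0.0848, edgeR adjusted p = 0.0090). Junb (ENSMUSG00000052837, chromosome 8 from 84974484 to 84978718, minus strand), a weaker activator that can oppose Jun, was at 259, 285 and 286 CPM in sgcontrol and at 194, 195 and 189 CPM in sgkiaa1522. Its fall was tighter, with a log2 fold change of -0.53 (SE 0.0622, edgeR adjusted p = 4.5e-04). Junb shares 7.52% of its exon bases with Prdx2 on the opposite strand, which also fell, from 224 ± 16.3 to 171 ± 5.60 CPM (SD, n = 3, log2 fold change -0.39, edgeR adjusted p = 0.0030).

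Jund (ENSMUSG00000071076, chromosome 8 from 70698949 to 70700616, plus strand), the JUN gene that most cells express steadily, was at 211, 289 and 308 CPM in sgcontrol and at 302, 271 and 261 CPM in sgkiaa1522. The groups overlapped, and sgcontrol replicate 1 was the lowest of the 6 libraries. Its log2 fold change was 0.046, with a 95% interval from -0.27 to 0.37 (edgeR adjusted p = 0.80), and it was -0.11 without sgcontrol replicate 1 and -0.016 without sgkiaa1522 replicate 1. An antisense gene, Gm11175, shares 52.6% of the exon bases of Jund but had at most 7 counts in any library. At most 13 counts were found for Junos, which overlaps Jun.

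Maff (ENSMUSG00000042622, chromosome 15 from 79346621 to 79359076, plus strand), a small MAF protein with no activation domain that pairs with NRF and FOS proteins, was at 64.5, 66.4 and 59.9 CPM in sgcontrol and at 92.4, 93.7 and 100.4 CPM in sgkiaa1522. Every sgkiaa1522 library was higher, and the log2 fold change was 0.59 (SE 0.0712, edgeR adjusted p = 5.1e-04).

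Atf3 (ENSMUSG00000026628, chromosome 1 from 191170296 to 191218039, minus strand), a stress-induced factor that pairs with JUN proteins, was at 109, 130.4 and 186 CPM in sgcontrol and at 139, 83.5 and 107 CPM in sgkiaa1522. Its coefficient of variation within sgcontrol was 28.2%, and the groups overlapped. Its log2 fold change of -0.37 had a 95% interval from -0.92 to 0.18 (edgeR adjusted p = 0.22), so a fall as large as that of Junb lies inside the interval. Batf3 (ENSMUSG00000026630, chromosome 1 from 191097847 to 191108945, plus strand), known for its role in dendritic cells, had 5, 2 and 6 counts in sgcontrol and 3, 4 and 0 counts in sgkiaa1522. The groups overlapped, and the counts of Batf3 are too few for a fold change (exact two-sided permutation test of CPM, p = 0.4, in a design of 3 libraries against 3 that cannot go below 0.1).

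**Figure D2:**
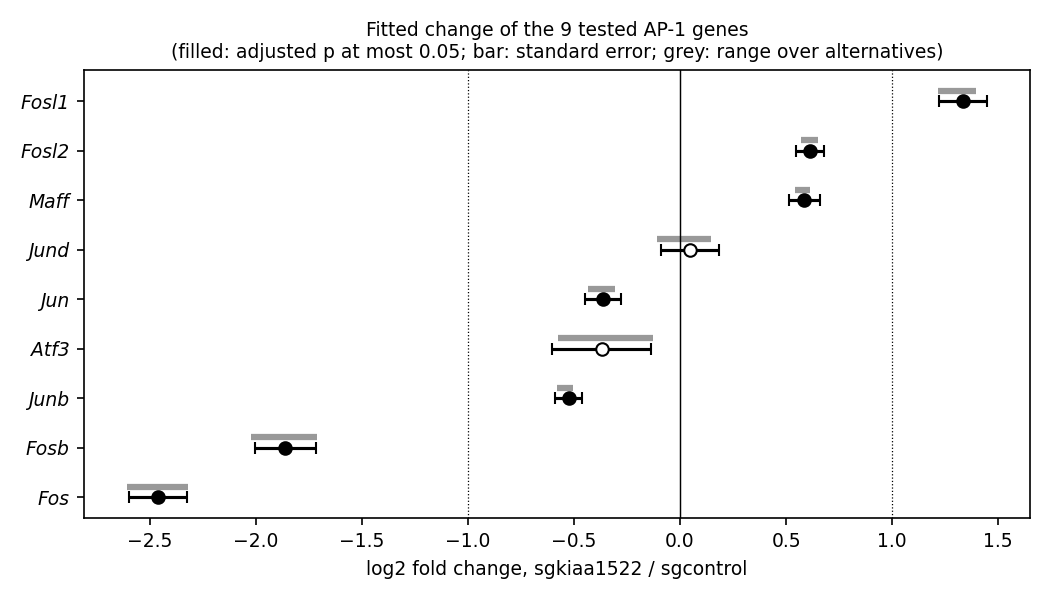
Fitted log2 fold change (x axis, sgkiaa1522/sgcontrol) of the 9 tested AP-1 genes (y axis), with its standard error (SE, black bar) and the range over 13 alternative analyses (grey bar). Filled points had an edgeR adjusted p of at most 0.05 and dotted lines mark log2 fold changes of -1 and 1. Only the grey bar of Jund crosses 0.

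Levels of different genes were compared as TPM, a transcript abundance per summed exon length. In sgcontrol the order from the top was Jund (413 ± 70.3 TPM), Fos (309 ± 6.07), Junb (308 ± 10.3), Jun (267 ± 16.2), Atf3 (168 ± 45.1), Fosb (102 ± 1.52), Fosl1 (87.4 ± 10.2), Maff (62.9 ± 3.81), Fosl2 (18.7 ± 1.06) and Batf3 (0.405 ± 0.209) (SD, n = 3). Of the neighbours in this order, only Fos and Junb overlapped between libraries. In sgkiaa1522 it was Jund (456 ± 31.9 TPM), Fosl1 (235 ± 19.5), Junb (229 ± 0.609), Jun (221 ± 17.5), Atf3 (140 ± 35.8), Maff (101 ± 6.01), Fos (60.1 ± 12.2), Fosl2 (30.5 ± 0.820), Fosb (30.1 ± 6.55) and Batf3 (0.263 ± 0.230) (SD, n = 3). Here Fosl1, Junb and Jun overlapped, as did Atf3 with Maff and Fosl2 with Fosb. Fos moved from place 2 to place 7 and Fosl1 from place 7 to place 2. These places rest on the length given to each gene. With the mean transcript length in its place, Fos led in sgcontrol at 347 ± 6.02 TPM, above Jund at 216 ± 37.1 TPM, and was at place 7 in sgkiaa1522 (SD, n = 3). Fosl1 was then at place 6 in sgcontrol (102 ± 12.1 TPM) and at place 1 in sgkiaa1522 (266 ± 21.8 TPM), above Junb and Jund (230.3 ± 1.70 and 229.6 ± 16.0 TPM, SD, n = 3).

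The make-up of the FOS family changed more than its total. Fos was 61.4%, 58.3% and 59.5% of the family's summed TPM in sgcontrol but 20.4%, 13.9% and 16.3% in sgkiaa1522. Fosl1 was 14.9%, 17.9% and 17.9% in sgcontrol and 60.8%, 70.5% and 67.1% in sgkiaa1522, so the leading FOS transcript was Fos in every sgcontrol library and Fosl1 in every sgkiaa1522 library. The level of Fos was 3.57 ± 0.477 times that of Fosl1 in sgcontrol and 0.259 ± 0.0706 times in sgkiaa1522 (SD, n = 3), on the TPM scale. The summed FOS family level was 507, 517 and 526 TPM in sgcontrol and 352, 342 and 375 TPM in sgkiaa1522. These sums and shares follow from the member values above and carry no test of their own.

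By group mean the JUN family kept its order of members on this scale, although Jun (241 TPM) was above Junb (229 TPM) in sgkiaa1522 replicate 1. The family's summed level was 884, 1012 and 1067 TPM in sgcontrol and 963, 880 and 874 TPM in sgkiaa1522, and the groups overlapped, whereas with the mean transcript length they did not (677 ± 55.5 against 571 ± 25.3 TPM, SD, n = 3). Jund was 41.6 ± 3.37% of the family in sgcontrol and 50.3 ± 0.723% in sgkiaa1522, and Junb was 31.3 ± 2.03% and 25.3 ± 1.29% (SD, n = 3). With the mean transcript length Junb led by group mean, at 47.7% and 40.3%, and Jund was at 31.7% and 40.2%. The ratio of summed FOS to summed JUN level was 0.526 ± 0.0425 in sgcontrol and 0.394 ± 0.0321 in sgkiaa1522 (SD, n = 3), or 0.853 and 0.698 with the mean transcript length. JUN transcripts outnumbered FOS transcripts in all 6 libraries with either length.

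**Figure D3:**
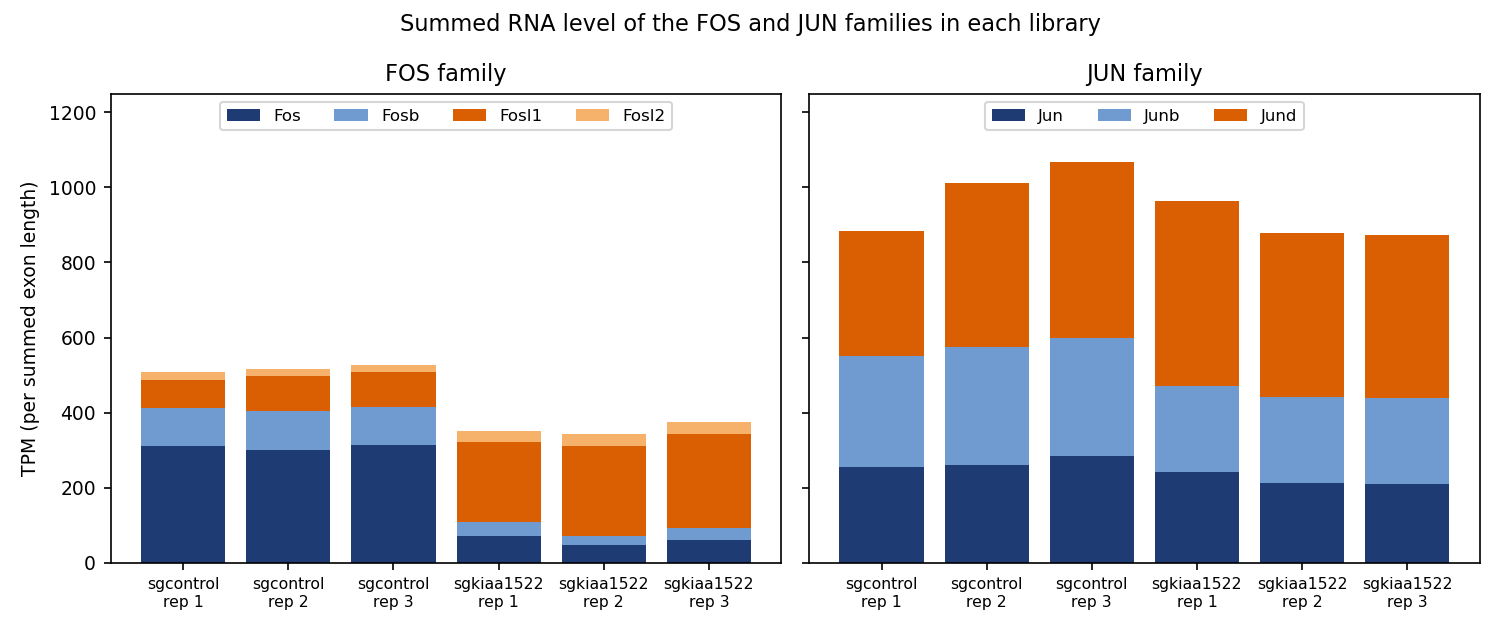
Summed TPM (y axis, per summed exon length, from 0) of the FOS family (left) and the JUN family (right) in each of the 6 libraries, with each gene a coloured segment of the bar. Fos makes up most of each sgcontrol FOS bar and Fosl1 most of each sgkiaa1522 FOS bar, while the Jund segment is the largest of the JUN family in every library.

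Other parts of the pathway were described with hand-written lists, as counts read against the 26.3% of all tested genes called in each direction. Where 5 or fewer genes are counted, those that fall outside the rule for named genes were named after their values were seen. Among 28 other bZIP genes that can pair with AP-1 proteins or bind like sites, 20 were tested, of which 12 rose (60.0%), 1 fell and 7 did not pass (median log2 fold change 0.31). The rises were of less than 1 on the log2 scale, and 8 to 10 genes rose with any 1 library left out. Atf4, the effector of the integrated stress response, rose from 514 ± 63.4 to 637 ± 24.8 CPM, and Atf6, a sensor of endoplasmic reticulum stress, from 235 ± 31.8 to 366 ± 20.9 CPM (SD, n = 3, log2 fold changes 0.31 and 0.64, edgeR adjusted p = 0.026 and 0.0017). Atf4 did not pass with the replicate number as a block (edgeR adjusted p = 0.059). Nfe2l1 varied from library to library (200 ± 183 against 217 ± 184 CPM, SD, n = 3) and did not pass. The gene that fell was Cebpd (log2 fold change -0.81).

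Kinases that signal to AP-1 were called in both directions, and in neither direction above the 26.3% of all tested genes. Of 14 tested genes of the JNK and p38 arms, which activate JUN and ATF proteins, 2 rose (14.3%, Mapk12 and Mapk8ip3) and 2 fell (14.3%, Mapk11 and Mapk8). The other 10 did not pass, and the median log2 fold change was -0.0072. Mapk11, which encodes p38β, was at 18.0, 23.3 and 25.6 CPM in sgcontrol and at 9.47, 8.02 and 8.89 CPM in sgkiaa1522 (log2 fold change -1.35, SE 0.153, edgeR adjusted p = 3.8e-04). Mapk8, which encodes JNK1, was close to the limit (log2 fold change -0.27, edgeR adjusted p = 0.046) and the number of falling genes was 1 in several alternatives. The scaffold Mapk8ip3 rose by 0.45 on the log2 scale, and Mapkapk2 and Map2k4 did not pass (-0.0093 and 0.081).

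Of 16 tested RAS-ERK genes, the arm that induces Fos and stabilises FOS proteins, 4 rose (25.0%) and 2 fell (12.5%, Mapk3 and Araf). Sos1, Map2k1 and Rps6ka5 were among those that rose, 10 genes did not pass, and the median log2 fold change was -0.029. The rising genes numbered 2 without replicate 2 or 3 of either group, and the falling genes 1 without any library other than sgcontrol replicate 1. Mapk3, which encodes ERK1, fell from 295 ± 19.3 to 225 ± 6.45 CPM (SD, n = 3, log2 fold change -0.39, edgeR adjusted p = 0.0023). Sos1, an exchange factor for RAS, rose from 170 ± 24.3 to 322 ± 16.7 CPM (SD, n = 3, log2 fold change 0.93, edgeR adjusted p = 3.7e-04). RNA levels of kinases do not report their phosphorylation.

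SRF with its partners drives serum-induced transcription of Fos, Fosb, Egr1 and others. Srf itself was at 143 ± 2.76 CPM in sgcontrol and 133 ± 1.56 CPM in sgkiaa1522 (SD, n = 3, log2 fold change -0.11, edgeR adjusted p = 0.13), and Elk3 at 201 ± 1.90 and 203 ± 1.73 CPM (SD, n = 3). Of the 6 genes of this list, 1 (16.7%) fell (Mrtfa, Mkl1 in the files, log2 fold change -0.25, edgeR adjusted p = 0.013) and 1 (16.7%) rose (Mrtfb, 0.47, edgeR adjusted p = 0.011). With the replicate number as a block, the edgeR adjusted p of Mrtfa was 0.063. The number of falling genes was 0 without replicate 2 of either group, and that of rising genes 2 without sgcontrol replicate 1.

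Immediate-early transcripts are short-lived, and 12 tested genes of RNA decay and of JUN and FOS protein turnover were counted. Of these, 5 rose (41.7%, among them Zfp36l1, Zfp36l2, Khsrp and Itch), 2 fell (16.7%, Zfp36 and Hnrnpd) and 5 did not pass (median log2 fold change 0.28). Zfp36l1, which binds AU-rich elements and promotes decay, was at 42.4, 42.9 and 40.5 CPM in sgcontrol and at 84.9, 98.2 and 98.7 CPM in sgkiaa1522 (log2 fold change 1.16, SE 0.0832, edgeR adjusted p = 6.8e-05). Its relative Zfp36l2 rose from 416 ± 19.9 to 573 ± 30.7 CPM (SD, n = 3), whereas Zfp36, itself an immediate-early gene, fell from 60.7 ± 0.684 to 39.6 ± 2.63 CPM (SD, n = 3). The decay factor Khsrp rose by 0.27 on the log2 scale.

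Genes known as AP-1 targets did not move one way. Of 30 listed, 24 were tested, with a median log2 fold change of 0.34. Among the tested targets 12 rose (50%), 5 fell (20.8%, Ccl2, Timp1, Loxl2, Plau, Krt18) and 7 did not pass. Over all tested genes 26.3% were called in each direction, so rises were above that share and falls below it. Mmp13, a collagenase, was at 31.2, 30.9 and 24.7 CPM in sgcontrol and at 581, 600.2 and 661 CPM in sgkiaa1522 (log2 fold change 4.41, SE 0.114, edgeR adjusted p = 3.1e-06). The stromelysins Mmp10 and Mmp3, at most 2.47 and 0.746 CPM in any sgcontrol library, were at 56.9 ± 11.5 and 10.1 ± 2.17 CPM in sgkiaa1522 (SD, n = 3). Ptgs2, which encodes the prostaglandin synthase COX2, was at 600.3, 465 and 437 CPM in sgcontrol and at 1283, 1227 and 1352 CPM in sgkiaa1522 (log2 fold change 1.36, edgeR adjusted p = 1.3e-04). Spp1, which encodes osteopontin, rose from 1975 ± 140 to 3711 ± 282 CPM (SD, n = 3).

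In the other direction, the chemokine Ccl2 was at 10.9, 11.8 and 12.7 CPM in sgcontrol and at 2.64, 1.04 and 1.47 CPM in sgkiaa1522 (log2 fold change -2.84, SE 0.277, edgeR adjusted p = 2.0e-04). Timp1, an inhibitor of metalloproteinases, fell from 59.9 ± 4.91 to 28.8 ± 4.48 CPM (SD, n = 3, log2 fold change -1.05, edgeR adjusted p = 5.2e-04). Krt18 was at the edge of the limit (log2 fold change -0.19, edgeR adjusted p = 0.0496) and Ezr did not pass (-0.075). Without any 1 of sgcontrol replicates 2 and 3 and sgkiaa1522 replicates 1 and 2, the number of falling targets was 3.

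Other immediate-early genes also moved both ways. Of 28 listed, 23 were tested, of which 10 fell (43.5%), 9 rose (39.1%) and 4 did not pass, with a median log2 fold change of -0.24. Egr1, a zinc finger factor induced together with Fos, was at 563, 577 and 596 CPM in sgcontrol and at 213, 235 and 222 CPM in sgkiaa1522 (log2 fold change -1.37, SE 0.0611, edgeR adjusted p = 1.5e-05). Egr2, Klf2 and Ctgf also fell by more than 1 on the log2 scale (-2.01, -2.47 and -1.87). Gadd45a, induced by stress and DNA damage, rose from 40.7 ± 5.27 to 114 ± 7.26 CPM (SD, n = 3, log2 fold change 1.48, edgeR adjusted p = 6.6e-05). Cyr61 fell by 0.81 on the log2 scale, Dusp4, a phosphatase that ERK induces, rose by 0.51, and Klf6 did not pass (-0.24). The number of rising genes was 5 without sgcontrol replicate 3 and 4 without sgkiaa1522 replicate 3.

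**Figure D4:**
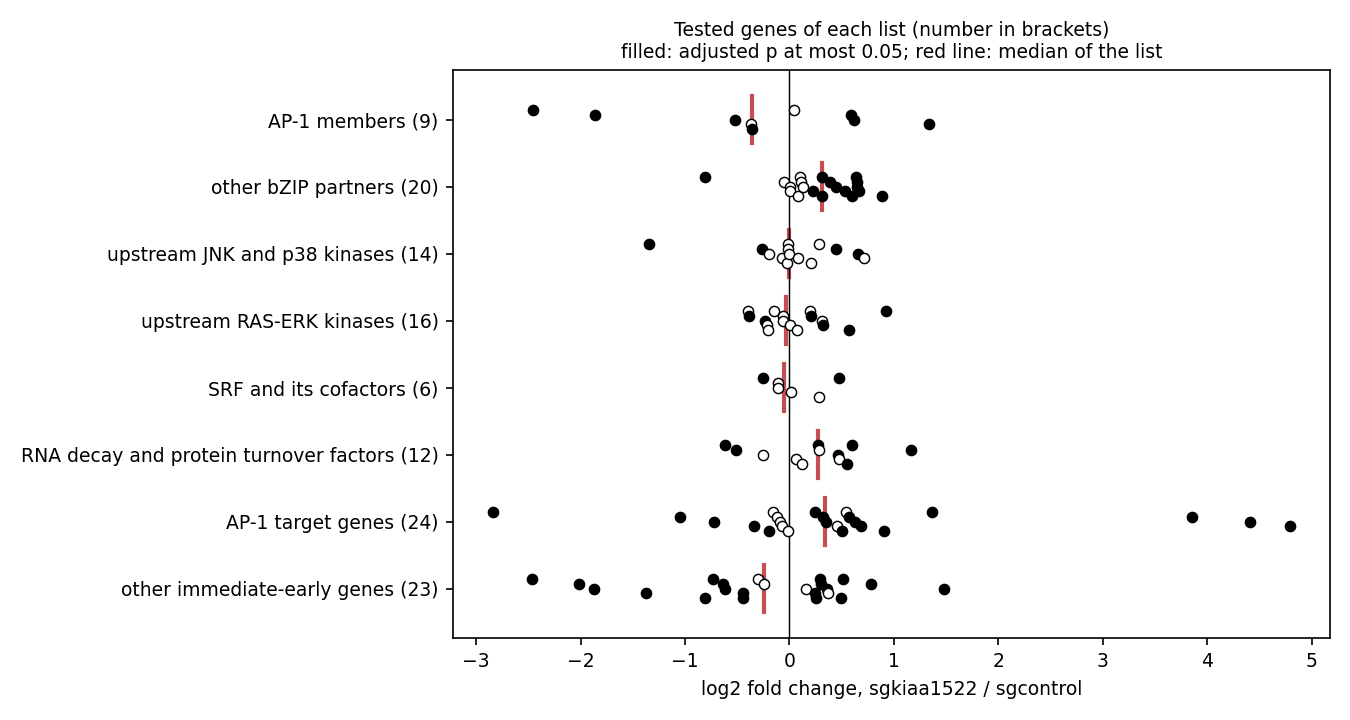
Log2 fold change (x axis, sgkiaa1522/sgcontrol) of every tested gene of each list (rows, number of tested genes in brackets), filled where the edgeR adjusted p was at most 0.05, with the list's median in red. The AP-1 and other immediate-early genes spread to both sides of 0, and Mmp3, Mmp13 and Mmp10 stand at the far right among the targets.

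Some other measures moved with the groups, and their part in the AP-1 values was not tested. Mitochondrial transcripts were 8.45% to 8.77% of the counts in sgcontrol and 7.12% to 7.66% in sgkiaa1522, and the log2 fold change of Fos was between -2.47 and -2.45 over the alternatives that kept all libraries, 1 of which left these transcripts out. Of 14 epithelial markers, 8 were tested and 5 of them fell (62.5%, against 26.3% of all tested genes). The other 3, Foxa1, Foxa2 and Nkx2-1, did not pass (log2 fold changes 0.024, 0.33 and -1.09, edgeR adjusted p = 0.85, 0.069 and 0.21). The summed level of the 14 markers was 4041 to 4750 CPM in sgcontrol and 3434 to 3650 CPM in sgkiaa1522. Keratins 8, 18 and 19 had high levels and fell by 0.40, 0.19 and 0.73 on the log2 scale. Cdh1, which encodes E-cadherin, fell from 56.4 ± 4.94 to 20.6 ± 1.15 CPM (SD, n = 3, log2 fold change -1.45, edgeR adjusted p = 5.1e-05), while Epcam and Cldn3 had 0 counts in every library. Of 10 leukocyte markers, 1 was tested (Cd68, higher), the summed level was 2.37 to 6.43 and 11.2 to 14.0 CPM, and Cd3e and Adgre1 were at 0. The higher sum in sgkiaa1522 came mostly from Cd68 (1.20 ± 0.0512 against 11.3 ± 1.41 CPM, SD, n = 3). Lyz2, under the limit for testing, was lower in sgkiaa1522 (2.27 ± 1.32 against 0.925 ± 0.0181 CPM, SD, n = 3). The summed level of 10 fibroblast markers was 467 to 486 and 167 to 198 CPM, mostly from Col1a2, with Thy1 and Fap at 0, and that of 8 endothelial markers was 3.72 to 5.80 and 9.48 to 11.8 CPM, mostly from Vwf. In bulk RNA, fewer cells that express a gene and less RNA per cell cannot be told apart.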

How the data were processed

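The authors deposited whole-number counts per Ensembl gene for 6 libraries, without normalization. The paper's methods name Seqtk for removing adaptors and rRNA reads, and Hisat2 2.0.4 for alignment to GRCm38. Stringtie 1.3.0 gave the counts, from fragments with a unique alignment. The annotation release and the use of strand are not given in the sources used here. Libraries were grouped by their labels.

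The 10046 of 34745 genes whose counts summed to more than 500 were normalised by TMM (factors 0.989 to 1.01) and compared by the quasi-likelihood test of edgeR, with Benjamini-Hochberg adjustment over all of them, without covariates (R 4.3.3, edgeR 4.0.16). "Rose" and "fell" stand for an adjusted p of at most 0.05, and the limit of 1 in log2 fold change in the study's methods was counted apart. Standard errors are the log2 fold change over the root of the F statistic. CPM are over the counts of tested genes, and TPM used the exon lengths of GENCODE M21, to which 34344 gene identifiers matched. A floor of 3 counts is 0.161 to 0.245 CPM when scaled to a library's total count over all genes, and covers counting error only. The tests were tested on simulated data.

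Members and gene lists were chosen with earlier results of these data known. Besides the members and the targeted gene, the genes named are list members past both limits, up to 3 further genes of each list with the highest counts, genes sharing exons with a member and the 5 closest profiles to Fos and to Jun. Other genes were named to account for counts of 5 or fewer, after their values were seen. Some list members are counted but not reported here by name. Alternatives were DESeq2 1.42.0, other normalisations and filters, the replicate number as a block, each library left out in turn, the mean transcript length for TPM and, chosen after seeing the data, leaving out mitochondrial genes. Libraries of one group differed beyond sampling noise (chi-square over its degrees of freedom 12.3 or more), so none is the same library deposited again.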

Additional observations from a re-analysis of the deposited data

How the results depend on the processing

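Under 13 alternatives, the 4 falling and 3 rising AP-1 genes kept their direction and an adjusted p of at most 0.05, with the highest at 0.0388 for Jun by edgeR. Only Jund changed sign, between -0.11 and 0.15 with each library left out in turn (-0.11 without sgcontrol replicate 1 and -0.016 without sgkiaa1522 replicate 1), and its cause was not tested. Same-numbered libraries did not deviate together (correlations across genes of -0.23, -0.053 and -0.17, and no library correlated best with its own number). With so few libraries, these correlations cannot show whether same-numbered libraries were prepared together. Adding a replicate block left 2111 lower and 2109 higher genes in place of 2639 and 2638, the log2 fold change of Fos was -2.47 and that of Fosl1 1.34, 8 bZIP genes rose in place of 12 (Atf4 at an adjusted p of 0.059), and the falling genes were 1 among the JNK and p38 kinases, 1 among the RAS-ERK kinases, 0 among SRF and its cofactors and 3 among the AP-1 targets.

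List counts were small and moved more than the members. DESeq2 called 1 falling JNK and p38 gene. Testing every gene with at least 1 count gave 1 falling and 4 rising JNK and p38 genes, 1 of them by at least 1 on the log2 scale, and 3 falling targets, and filterByExpr gave 1 falling gene, 1 rising by at least 1, and 3 falling targets, with more genes tested in both. Genes past both limits numbered 941 lower and 767 higher with every gene and 812 and 607 with filterByExpr, in place of 436 and 275. With each library left out in turn, falling genes numbered 1 to 2 among the JNK and p38 kinases, 1 to 3 among the RAS-ERK kinases, 0 to 1 among SRF and its cofactors and 3 to 4 among the targets (1 to 2 by at least 1 on the log2 scale). Rising genes numbered 2 to 5 among the RAS-ERK kinases, 1 to 2 among SRF and its cofactors and 4 to 8 among other immediate-early genes, and 0 to 1 rose by at least 1 on the log2 scale among the RAS-ERK kinases and among the bZIP genes. The count of falling JNK and p38 genes was 1 without any sgcontrol library or sgkiaa1522 replicate 2, that of falling RAS-ERK genes 1 without any library other than sgcontrol replicate 1, and that of rising RAS-ERK genes 2 without replicate 2 or 3 of either group. Falling SRF genes were 0 without either replicate 2, and rising SRF genes 2 without sgcontrol replicate 1. The cause was not tested.

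With the mean transcript length, the FOS family summed to 575 TPM in sgcontrol and 398 TPM in sgkiaa1522, the JUN family to 677 and 571 TPM, all 10 genes to 1435 and 1156 TPM (1736 and 1502 with summed exons), and the FOS to JUN ratio was 0.853 and 0.698. Fosb was 17.7% of the FOS family in sgcontrol, and Fosl2 was 4.21% and 9.57%. Jun was 20.6% and 19.5% of the JUN family, Junb 47.7% and 40.3%, and Jund 31.7% and 40.2%. Depth limits Batf3, whose counts were near the floor.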

Other observations

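The tested genes whose profile over the 6 libraries was closest to that of Fos, by the root mean square difference in centred log2 CPM, were Atp6v1c2, Scel, Daam2, Ccl2 and Apol9a (0.12 to 0.17). None of these is an AP-1 gene, and only Ccl2 is on the lists above. Atp6v1c2, a subunit of the vacuolar proton pump, fell from 21.6 ± 2.06 to 3.69 ± 0.511 CPM, and Scel, which encodes sciellin of the cornified envelope, from 82.7 ± 8.58 to 14.1 ± 1.98 CPM (SD, n = 3). The 5 closest to Jun were Cox6b1, Lpcat4, Mrps33, Rasl11a and Kat5 (0.026 to 0.033), which fell by between 0.33 and 0.39 on the log2 scale. With 6 libraries in 2 groups, such profiles follow mostly the difference between the groups.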
